A study of Mus musculus with 4 samples.

Results

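The Hox genes encode homeodomain transcription factors that give cells of the embryo their position along the head-to-tail axis and along the limbs. In the mouse they lie in 4 clusters, named A to D and found here on chromosomes 6, 11, 15 and 2 of the GRCm38.p6 annotation. Within a cluster they are numbered from 1 to 13, the paralogue number, in the order in which they follow each other on the chromosome. Low numbers are used toward the head and high numbers toward the tail and the ends of the limbs. Cultured fibroblasts are known to keep a Hox pattern that reflects the site of the body they came from. In the mouse mammary gland, *Hoxa9*, *Hoxb9* and *Hoxd9* are together needed for the gland to develop in pregnancy. A gene was taken as a Hox gene when its probe sets on the array carried a single symbol made of Hox, a cluster letter and a number. This gave 33 of 18194 singly named genes, with 9 in cluster A, 9 in cluster B, 7 in cluster C and 8 in cluster D. They were measured by 48 probe sets, and the 1 with the highest mean over the arrays stood for each gene. A further 3 probe sets carried the symbols of a pair of Hox genes each, read between 4.65 and 5.36 and were assigned to no gene.

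RNA was measured on 4 Affymetrix mouse genome arrays, 1 for each genotype, from second-passage mammary fibroblasts of FVB/N female mice aged 16 weeks. Normal fibroblasts came from *Ets2db/loxP* mice (normal with *Ets2*) and from *Fsp-Cre;Ets2db/loxP* mice (normal *Ets2* null). Tumor fibroblasts came from *ErbB2;Ets2db/loxP* mice (*ErbB2* with *Ets2*) and from *ErbB2;Fsp-Cre;Ets2db/loxP* mice (*ErbB2* *Ets2* null). Values below stand in that order. Every genotype, the controls included, carried 1 *Ets2* allele without a working DNA-binding domain and 1 loxP allele, so the comparison is of 1 functional copy with none where Cre has acted. Cre was driven by the promoter of fibroblast specific protein, and the *ErbB2* oncogene was expressed in the epithelium. The sources used here state neither which mammary glands were taken nor how many mice contributed to a culture. With 1 array per genotype no value has a replicate spread, no difference was tested, and the number of arrays limits the precision. In such bulk RNA, fewer cells of a type and less RNA per cell cannot be told apart.

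All values are log2 expression values, and a difference of 1 on this scale is 2-fold. The 4 arrays had medians of 5.51 to 5.54, and the correlation between arrays over all probe sets was 0.988 to 0.993. The brightest of the *Ets2* probe sets read 8.14, 8.35, 8.34 and 8.31. The difference without *Ets2* was 0.21 in normal and -0.02 in *ErbB2* fibroblasts, and the sources used here do not say whether the probes fall in the deleted exons, so the readings do not check the *Ets2* null labels. Of 20 fibroblast markers, 19 were at log2 6 or more on every array. Of 15 luminal epithelial markers 7 were at 6 or more on every array and 4 below 6 on every array, and of 22 macrophage and myeloid markers 18 and 1 were. Markers of other cell types were therefore read as well, and their levels are given beside the comparisons.

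The promoters of 4 members with *Ets2* differences, *Hoxa9* and *Hoxa10* (higher without *Ets2* in *ErbB2* fibroblasts) and *Hoxd8* and *Hoxd9* (lower without *Ets2* in both backgrounds), are shown because Ets2 binds DNA at a GGAA core. Each is the 250 bases before the start of the gene in RefSeq on GRCm38.p6, read 5′ to 3′ on the strand of the gene, and capitals mark a match to a searched motif. *Hoxa9* lies at chr6:52227371-52227620 and *Hoxa10* at chr6:52240855-52241104, both on the minus strand, and *Hoxd8* lies at chr2:74704365-74704614 and *Hoxd9* at chr2:74697513-74697762, both on the plus strand.
Hoxa9: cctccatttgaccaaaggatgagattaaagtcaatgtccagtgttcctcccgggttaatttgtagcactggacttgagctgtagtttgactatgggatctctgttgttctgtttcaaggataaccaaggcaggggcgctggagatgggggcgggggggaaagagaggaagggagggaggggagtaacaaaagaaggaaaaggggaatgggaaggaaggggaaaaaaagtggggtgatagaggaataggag
Hoxa10: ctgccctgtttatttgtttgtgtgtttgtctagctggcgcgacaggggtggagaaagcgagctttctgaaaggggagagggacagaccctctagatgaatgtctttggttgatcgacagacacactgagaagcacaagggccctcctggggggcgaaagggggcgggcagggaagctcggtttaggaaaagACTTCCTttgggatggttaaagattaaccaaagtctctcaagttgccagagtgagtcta
Hoxd8: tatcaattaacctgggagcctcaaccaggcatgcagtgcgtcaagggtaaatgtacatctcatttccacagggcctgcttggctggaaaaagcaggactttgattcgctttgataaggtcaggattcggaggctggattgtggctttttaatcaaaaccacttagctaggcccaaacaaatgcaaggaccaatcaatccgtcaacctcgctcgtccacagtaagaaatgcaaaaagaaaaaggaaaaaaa
Hoxd9: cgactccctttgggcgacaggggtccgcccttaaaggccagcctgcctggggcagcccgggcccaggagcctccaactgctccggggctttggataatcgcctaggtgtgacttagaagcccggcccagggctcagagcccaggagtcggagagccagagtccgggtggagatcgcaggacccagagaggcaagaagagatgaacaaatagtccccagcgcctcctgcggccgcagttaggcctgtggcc

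Both strands were searched for CCGGAAGT and AGGAAGT, forms bound by ETS factors, and for TGATTNAT, bound by Hox proteins with their Pbx partners. The first and second differ in the base before GGAAGT, so 1 site cannot count for both. Of the 4 promoters, that of *Hoxa10* held 1 match, to AGGAAGT on the opposite strand (ACTTCCT), and the promoters of *Hoxa9*, *Hoxd8* and *Hoxd9* held none of the 3 motifs. The shorter GGAA core was not searched or marked, and it does occur in lower case, as in the promoters of *Hoxa9* and *Hoxd8*. A promoter was listed for 19 of the 33 members, not including *Hoxc10*. AGGAAGT was found in 2 of the 19, those of *Hoxa10* and *Hoxc4*, beside 7.69% of 32851 mouse promoters of the same length. CCGGAAGT was found in 0 of the 19 and in 2.88% of all promoters. TGATTNAT was found in 1 of the 19, that of *Hoxa2*, and in 2.82% of all. The GC content of the 4 shown was 49.6%, 51.6%, 44.4% and 65.2%, beside a median of 52.4% over all promoters. A match describes the letters and is no evidence of binding.

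The first question was which Hox genes these fibroblasts expressed. A probe set was counted as read when its value was log2 6 or more. On each array, of 76 genes for odor, pheromone and taste receptors, which fibroblasts are not known to express, 3 or 4 reached that level, and their 95th percentile was 5.75 to 5.95. The same 18 Hox genes were at 6 or more on all 4 arrays, the other 15 were below 6 on all 4, and none crossed the level between arrays. Thus 54.5% of the Hox genes were read on all 4 arrays, beside 54.0% of all singly named genes. The set of Hox genes read was therefore the same with and without *Ets2* and with and without the oncogene. Of all 18194 singly named genes, 10936 reached 6 on an array and 9818 did so on all 4. Most genes thus did not cross the level either, and a constant set is not particular to the Hox genes. How the Hox genes fall along the clusters is shown in the plot of values by paralogue number.

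**Figure D1:**
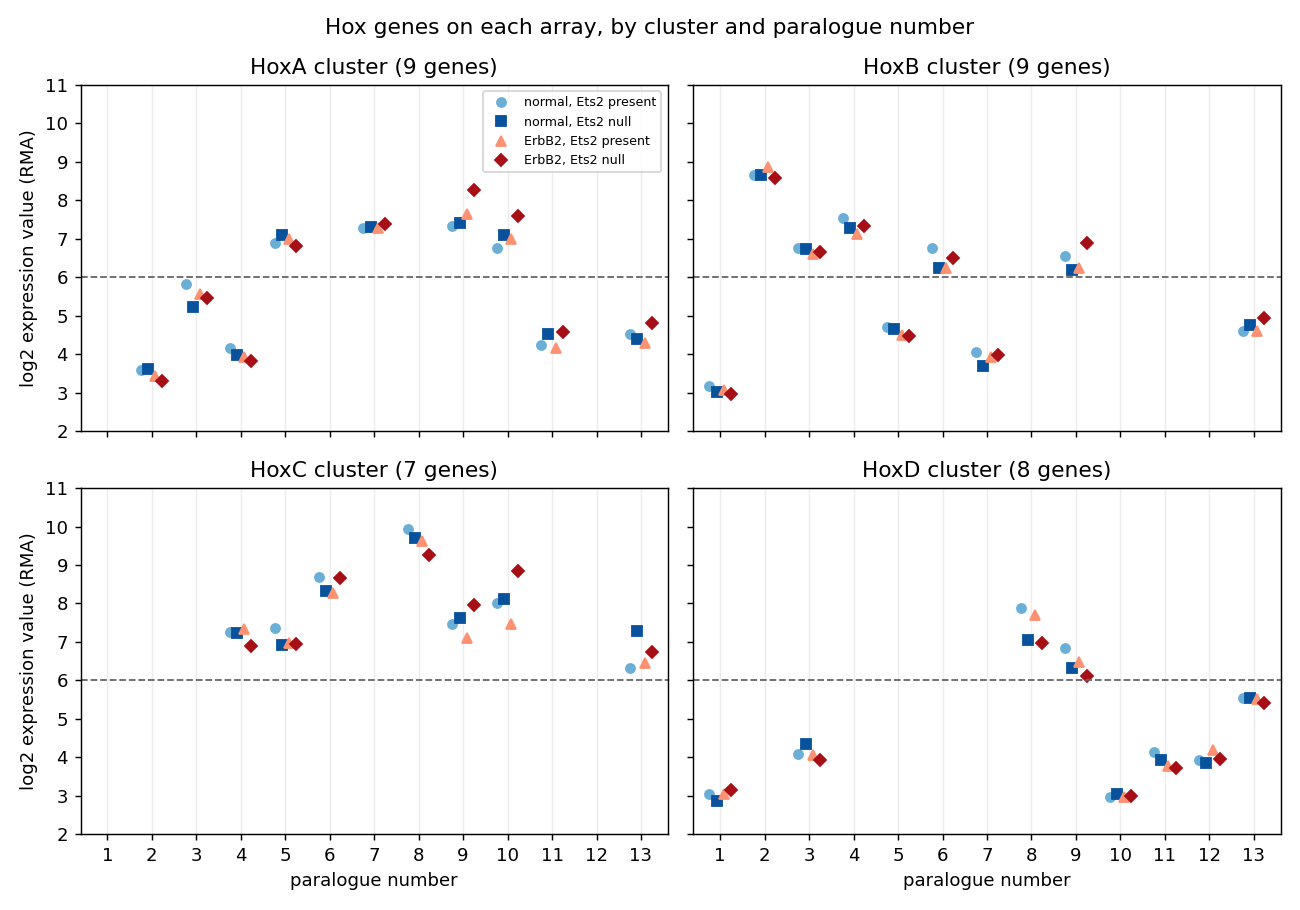
Log2 expression value (vertical axis) of each of the 33 Hox genes against paralogue number (horizontal axis), in 1 panel per cluster, with 1 point per array, set slightly apart sideways, and a dashed line at log2 6. The 18 genes above the line are above it on all 4 arrays, and they include all 7 of cluster C and 2 of the 8 of cluster D.

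Cluster C was read throughout: *Hoxc4*, *Hoxc5*, *Hoxc6*, *Hoxc8*, *Hoxc9*, *Hoxc10* and *Hoxc13* were at 6 or more on every array, 7 of 7. Cluster B was read in 5 of 9 genes, *Hoxb2*, *Hoxb3*, *Hoxb4*, *Hoxb6* and *Hoxb9*. Cluster A was read in 4 of 9, *Hoxa5*, *Hoxa7*, *Hoxa9* and *Hoxa10*, and cluster D in 2 of 8, *Hoxd8* and *Hoxd9*. By paralogue number, 2 of 7 genes numbered 1 to 3 were read, 13 of 16 numbered 4 to 9 and 3 of 10 numbered 10 to 13. The 3 were *Hoxa10*, *Hoxc10* and *Hoxc13*. In the bands used below for the differences, 9 of 12 genes numbered 4 to 8 and 7 of 14 numbered 9 to 13 were read. The middle of the clusters, which patterns the neck and trunk, was thus the part most often read. A probe set that binds its transcript poorly can read low, so a value below 6 was taken as not read rather than as absence of the transcript.

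The 15 members not read spanned 2.87 to 5.83 over the 4 arrays. In cluster A they were *Hoxa2*, *Hoxa3*, *Hoxa4*, *Hoxa11* and *Hoxa13*, and in cluster B *Hoxb1*, *Hoxb5*, *Hoxb7* and *Hoxb13*. In cluster D they were *Hoxd1*, *Hoxd3*, *Hoxd10*, *Hoxd11*, *Hoxd12* and *Hoxd13*. They include *Hoxb1* and *Hoxa2*, which pattern the hindbrain, although *Hoxb2* and *Hoxb3* of that region were read, and most of those that pattern the distal limb and the genital region, such as *Hoxa13* and *Hoxd13*. *Hoxd10*, a lumbar and hindlimb gene that neighbours *Hoxd9*, read 2.96 to 3.05 over the 4 arrays. *Hoxd9* itself read 6.85, 6.32, 6.47 and 6.11, so within cluster D the reading stopped after paralogue 9. In cluster A it stopped after *Hoxa10*, with *Hoxa11* at 4.24, 4.53, 4.17 and 4.58. The members nearest the level were *Hoxd9*, *Hoxb9* and *Hoxb6* above it, with lowest readings of 6.11, 6.19 and 6.23, and *Hoxa3* and *Hoxd13* below it, with highest readings of 5.83 and 5.55.

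Between the 4 arrays the Hox genes that read high and low were largely the same. Over the 33 genes the correlation between arrays was 0.974 to 0.992, beside 0.988 to 0.993 over all probe sets. The median range over the arrays was 0.61 for the 18 genes read and 0.33 for the 15 not read. The widest ranges in each set were 1.38 and 0.60. Among the 18 genes read, differences between genotypes spread more widely than among all genes that reached 6 on an array. Their robust SD (the median absolute deviation scaled to an SD) was 0.33 in the *Ets2* comparison of normal fibroblasts, beside 0.21. In *ErbB2* fibroblasts it was 0.67, beside 0.29. For tumor minus normal it was 0.31 beside 0.23 with *Ets2* and 0.44 beside 0.22 without. These shifts on a shared pattern are shown for each gene in the maps of log2 differences.

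**Figure D2:**
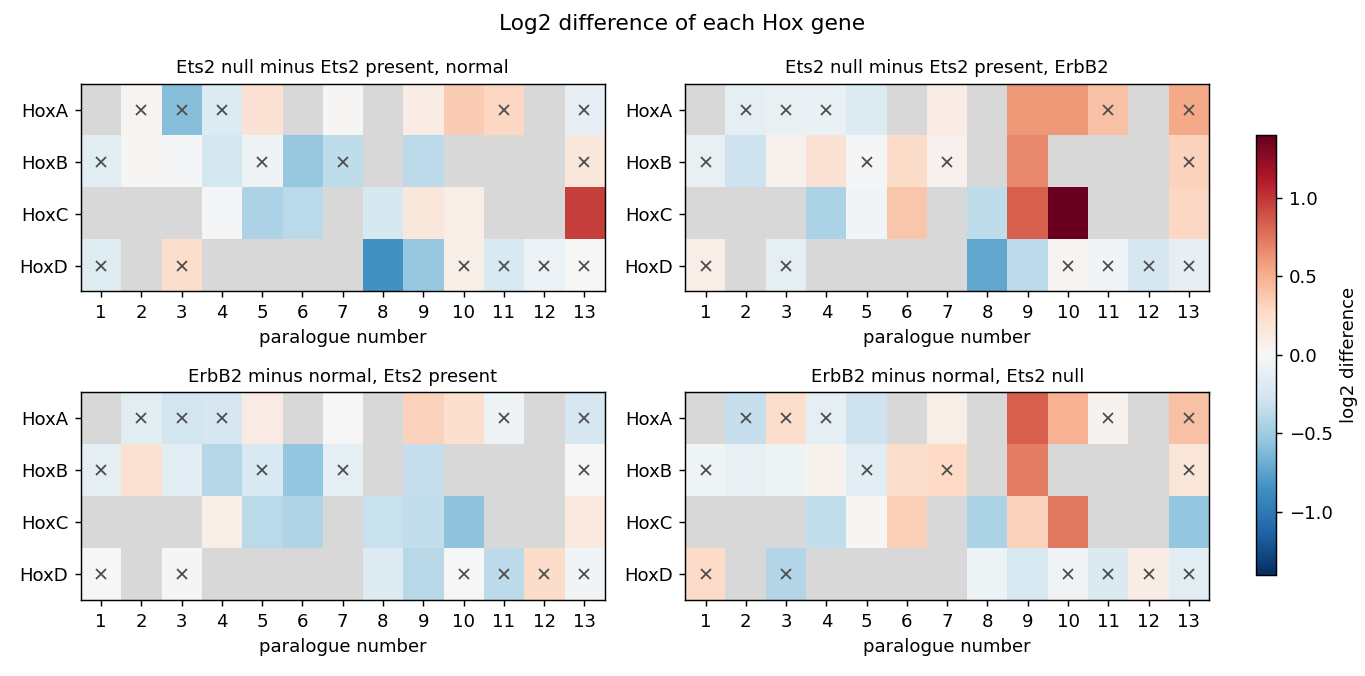
Log2 difference of each Hox gene in the 4 comparisons, with clusters as rows and paralogue numbers as columns, red for higher and blue for lower in the first-named genotype, grey for a number with no gene measured and a cross for a gene below log2 6 on all 4 arrays. In *ErbB2* fibroblasts the columns from 9 upward are red in clusters A to C, and cluster D is blue at paralogues 8 and 9 in both *Ets2* comparisons.

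The second question was whether *Ets2* loss changed the Hox genes of normal fibroblasts. *Hoxc13*, a regulator of hair and nail keratins, read 6.32, 7.29, 6.45 and 6.74, and so was higher in normal *Ets2* null fibroblasts by 0.97 (1.96-fold). That array alone stood above 7, while the 2 arrays with *Ets2* lay 0.13 apart. *Hoxd8*, a trunk gene, read 7.89, 7.04, 7.71 and 6.98, lower by 0.85 (1.80-fold) in normal *Ets2* null fibroblasts. No Hox gene differed by more than 2-fold in this comparison, beside 0.978% of all genes. At 1.5-fold, a size chosen after the data had been seen, *Hoxc13* was higher (1 of 33, beside 2.31% of all genes) and *Hoxd8* and *Hoxa3* were lower (2 of 33, beside 1.87%). *Hoxa3*, which patterns the pharynx, read 5.83, 5.23, 5.57 and 5.47 and so was below the level of reading throughout. The median difference over the 33 genes was -0.07, beside a median of -0.00 and a robust SD (the median absolute deviation scaled to an SD) of 0.21 over all genes.

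Around *Hoxd8*, the other gene of cluster D that was read moved the same way. *Hoxd9* had a difference of -0.53 (1.45-fold) in normal *Ets2* null fibroblasts, and the median of both was -0.69. Members of the middle of the other clusters were also a little lower. *Hoxb6*, a thoracic gene, read 6.77, 6.24, 6.23 and 6.49, a difference of -0.53. *Hoxc5* read 7.35, 6.92, 6.97 and 6.93, a difference of -0.43. For both of these the normal array with *Ets2* was the highest of the 4. Of the 9 genes read with paralogue numbers 4 to 8, 2 had a difference above 0, *Hoxa5* and *Hoxa7*, and the median was -0.25. Of the 7 read with numbers 9 to 13, 5 were above 0, with a median of 0.10. These bands were drawn after the values had been seen, and the medians are descriptions.

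Markers of other cells moved in the same comparison. The 15 luminal markers, as the sum of their values taken back from log2 to the linear scale, stood at 1511 in normal fibroblasts with *Ets2* and 3746 without, and 7 of them were higher by over 2-fold and 0 lower. For the 9 basal epithelial markers measured, 5 of which were below 6 on every array, the sums were 302 and 944. Skeletal muscle markers summed to 2256 and 4460, but of the 14 only 1 was higher by over 1.5-fold and 4 were lower. The 1 higher was *Acta1*, at 10.34 and 11.89, and the median difference of the list was -0.10. Adipocyte markers summed to 5471 and 8165. Endothelial markers summed to 1709 and 1189, with 3 of 10 lower by over 2-fold. Myeloid markers summed to 20358 and 15984. Pericyte and smooth muscle markers summed to 41223.8 and 44358.5, with 1 of 10 higher and 1 lower by over 2-fold. For the fibroblast markers the sums were 139182 and 113102, with 2 of 20 lower by over 2-fold. At 1.5-fold 7 were lower and 0 higher, and the median difference of the list was -0.40. The part of these cells in the Hox differences was not tested.

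The third question was the same for *ErbB2* tumor fibroblasts, where 5 genes numbered 9 or 10 on clusters A, B and C, but none of cluster D, were higher by over 1.5-fold without *Ets2*. *Hoxc10*, a gene of lumbar and hindlimb position, read 8.01, 8.10, 7.46 and 8.84. It was thus higher by 1.38 (2.61-fold) in *ErbB2* *Ets2* null fibroblasts, and by 0.09 (1.06-fold) in normal ones. The *ErbB2* array with *Ets2* was its lowest and the *ErbB2* *Ets2* null array its highest, with both normal arrays in between. It was the only Hox gene past 2-fold in any of the 4 comparisons, 1 of 33 in this one, beside 2.08% of all genes, and none passed the 4-fold used by the study. A single probe set measured it.

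The genes numbered 9 on clusters A, B and C were higher as well. *Hoxc9*, a gene of the thoracic level that acts in limb position, read 7.46, 7.62, 7.11 and 7.95, higher by 0.84 (1.79-fold) in *ErbB2* *Ets2* null fibroblasts. *Hoxb9* read 6.56, 6.19, 6.23 and 6.90, higher by 0.67 (1.59-fold), after a difference of -0.37 in normal fibroblasts. *Hoxa9* read 7.32, 7.42, 7.65 and 8.26, higher by 0.61 (1.52-fold), with 0.10 in normal fibroblasts. All 3 had their highest reading on the *ErbB2* *Ets2* null array. *Hoxa10*, which also patterns the uterus, did too: it read 6.75, 7.11, 6.99 and 7.60, a difference of 0.61 (1.53-fold), with 0.35 in normal fibroblasts. At 1.5-fold the count was thus 5 of 33 genes higher (*Hoxa9*, *Hoxa10*, *Hoxb9*, *Hoxc9* and *Hoxc10*), beside 2.84% of all genes. After centring each array on its median *Hoxa9* and *Hoxa10* were at 0.57, just short of 1.5-fold, and the count was 3.

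Lower by 1.5-fold was 1 of 33, *Hoxd8*, beside 5.64% of all genes. *Hoxd8* had a difference of -0.73 (1.66-fold), and no other member was past 1.5-fold in both *Ets2* comparisons, which share no array. *Hoxd9* had a difference of -0.36 (1.29-fold), so the paralogue 9 gene of cluster D had the opposite sign to those of clusters A, B and C. *Hoxc8*, a thoracic gene expressed where the mammary buds form, read 9.94, 9.71, 9.62 and 9.27, with differences of -0.36 here and -0.23 in normal fibroblasts, each under 1.5-fold. *Hoxc6*, also used in the mammary region, read 8.69, 8.32, 8.27 and 8.66. Its difference was 0.39 in *ErbB2* and -0.37 in normal fibroblasts, so the 2 null arrays lay on either side of their controls. *Hoxa5*, a gene of the neck and upper trunk that also acts in the lung, read 6.88, 7.09, 7.00 and 6.80, with differences of -0.20 here and 0.21 in normal fibroblasts.

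None of the other 5 genes read was past 1.5-fold in either *Ets2* comparison. *Hoxa7*, a trunk gene, read 7.28, 7.30, 7.28 and 7.38, and *Hoxb2*, of the hindbrain and neck, read 8.65, 8.67, 8.86 and 8.57. *Hoxb3* read 6.75, 6.73, 6.60 and 6.66, and its neighbour *Hoxb4*, which also acts in blood stem cells, read 7.53, 7.29, 7.13 and 7.34. *Hoxc4* read 7.25, 7.24, 7.34 and 6.89, lowest on the *ErbB2* *Ets2* null array with a difference of -0.45. Among the 7 genes not read with numbers 10 to 13, the *ErbB2* readings with and without *Ets2* were 4.17 and 4.58 for *Hoxa11*, 4.28 and 4.81 for *Hoxa13*, and 4.61 and 4.93 for *Hoxb13*. Those of cluster D did not share this direction throughout, with differences of 0.04 for *Hoxd10*, -0.04 for *Hoxd11*, -0.24 for *Hoxd12* and -0.11 for *Hoxd13*. All 7 lay below the level of reading.

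Taken by paralogue number, the 7 genes read with numbers 9 to 13 had a median difference of 0.61 in *ErbB2* fibroblasts, and 6 of the 7 were above 0. Without *Hoxd9* the median of the 6 on clusters A, B and C was 0.64. The 9 genes read with numbers 4 to 8 had a median of -0.03, and 4 were above 0. Over the 18 genes read, the correlation of difference with paralogue number was 0.45 (Pearson's r) or 0.54 (Spearman's rho). Without *Hoxc10* rho was 0.47, and over the 16 genes of clusters A, B and C it was 0.73. In normal fibroblasts rho was 0.30 over the 18 and 0.45 over the 16 of clusters A, B and C. Leaving out *Hoxc10*, or cluster D with *Hoxd8* and *Hoxd9*, was chosen after the values had been seen. These values are across genes that share arrays and, within a cluster, a stretch of chromosome, so they are no test. Over all 33 genes the median difference was 0.04 with a robust SD of 0.35, beside 0.04 and 0.27 over all genes. Over the 18 read the median was 0.15 with a robust SD of 0.67. All genes that reached 6 on an array had -0.01 and 0.29. The plot of *Ets2* differences by paralogue number sets both backgrounds side by side.

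**Figure D3:**
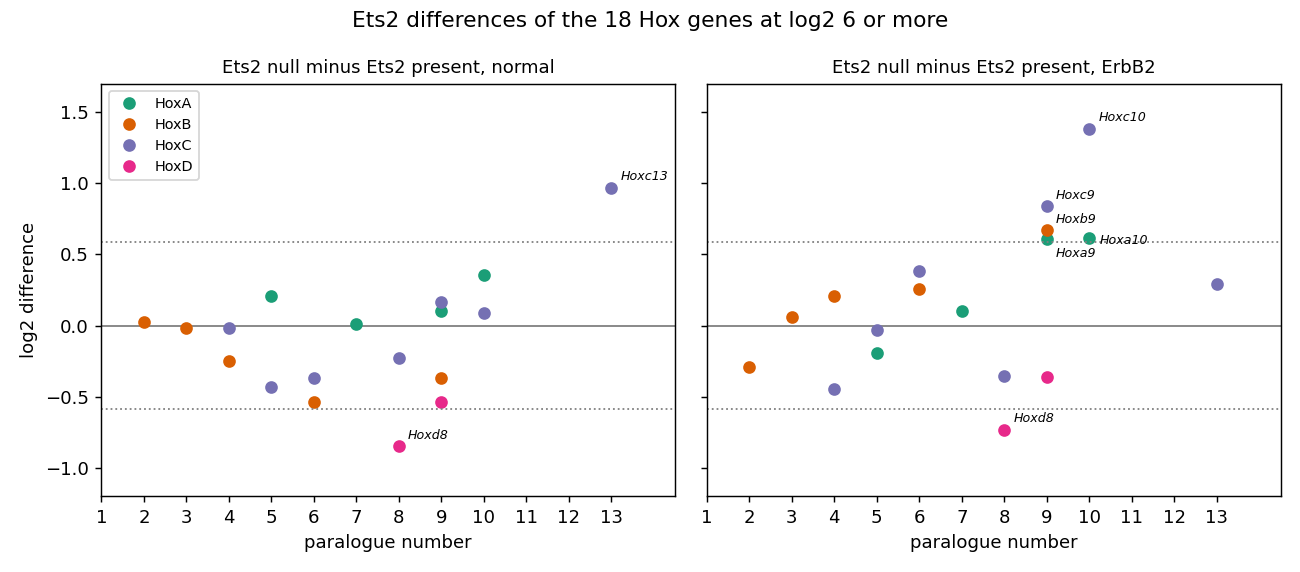
Log2 difference without *Ets2* from with *Ets2* for the 18 Hox genes at log2 6 or more (vertical axis) against paralogue number (horizontal axis), in normal fibroblasts (left) and *ErbB2* fibroblasts (right), coloured by cluster, with dotted lines at 1.5-fold and named genes beyond them. On the right the 6 genes of clusters A, B and C from number 9 upward all lie above 0, from 0.29 for *Hoxc13* to 1.38 for *Hoxc10*, and *Hoxd8* lies below the lower line in both panels.

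Markers of most other cell types were lower in the *ErbB2* comparison. The summed linear level of the luminal markers was 3119 with *Ets2* and 1160 without, with 9 of 15 lower by over 2-fold, and that of the basal markers was 729 and 260. The myeloid markers summed to 33721 and 14814, with 12 of 22 lower by over 2-fold, and those of skeletal muscle to 2815 and 1212. Endothelial markers summed to 1316 and 1007, and pericyte and smooth muscle markers to 41297.9 and 33281.5. In each of these lists 2 of 10 were lower by over 2-fold and 0 higher. Adipocyte markers summed to 7410 and 7365, with 0 of 8 past 2-fold. The fibroblast markers summed to 146048 and 142763, a median difference of -0.06, with 3 of 20 lower and 1 higher by over 1.5-fold. The part of these cells in the higher readings of *Hoxa9*, *Hoxa10*, *Hoxb9*, *Hoxc9* and *Hoxc10* was not tested.

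Several probe sets bear on some of these genes. Of 11 Hox genes with more than 1, 7 had at least 2 that reached log2 6 on an array. For *Hoxa9* the second probe set read 6.70, 7.11, 7.01 and 7.76, higher by 0.75 in *ErbB2* *Ets2* null fibroblasts, where the chosen one gave 0.61. For *Hoxd8* the second read 7.33, 6.68, 7.24 and 6.55, with differences of -0.65 and -0.69 in normal and *ErbB2* fibroblasts, where the chosen one gave -0.85 and -0.73. Both genes thus had the same direction on either probe set. For *Hoxa5* the second read 6.97, 6.44, 6.49 and 6.37, a difference of -0.53 in normal fibroblasts, where the chosen one gave 0.21. Of the 7 genes, 6 had 1 direction on all their probe sets that reached 6 in normal fibroblasts (not *Hoxa5*) and 5 in *ErbB2* fibroblasts (not *Hoxb3* and *Hoxb4*). The second *Hoxa10* probe set read 3.06 to 3.27 and so did not bear on its difference. In the annotation the spans of *Hoxa3* and *Hoxa4*, *Hoxa3* and *Hoxa5*, *Hoxb3* and *Hoxb4*, and *Hoxd10* and *Hoxd11* overlap, and which transcript a probe set of these reads is uncertain.

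**Figure D4:**
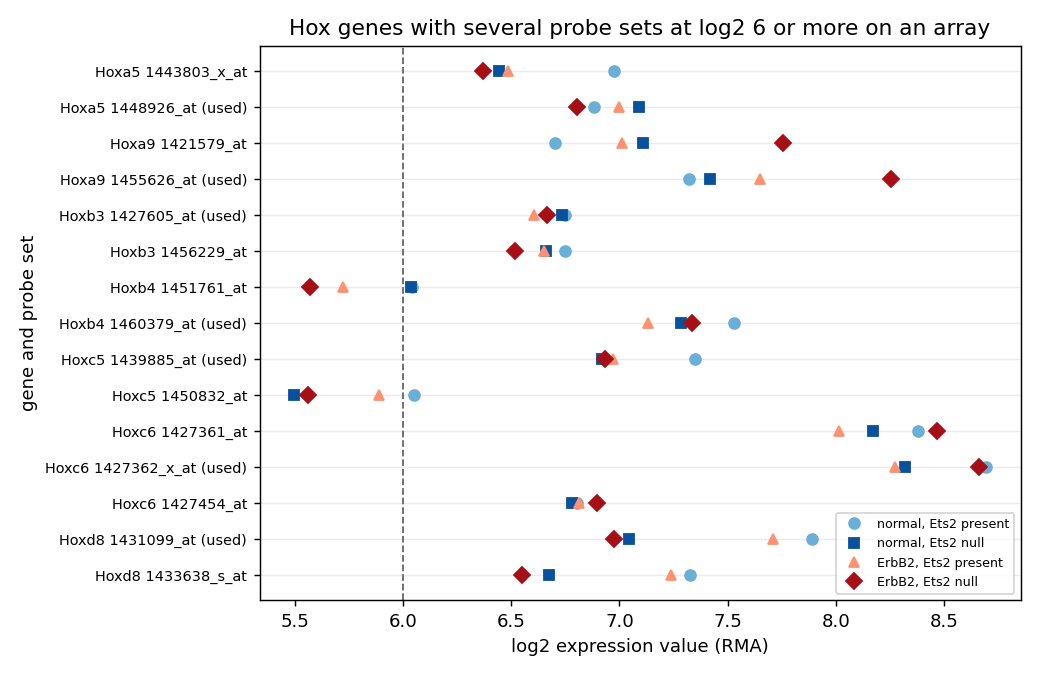
Log2 expression value (horizontal axis) on the 4 arrays for each probe set (rows) of the 7 Hox genes with several probe sets that reach log2 6 on an array, with a dashed line at 6 and the probe set used for each gene marked. The *ErbB2* *Ets2* null array is highest on both *Hoxa9* probe sets, and both null arrays are lowest on both *Hoxd8* probe sets.

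The last question was how tumor fibroblasts differed from normal ones. With *Ets2*, no Hox gene was past 2-fold, beside 1.0% of all genes, and none was past 1.5-fold higher or lower, beside 2.91% and 1.31%. The member furthest from 0 was *Hoxc10*, lower by 0.56 (1.47-fold) in *ErbB2* fibroblasts, and *Hoxb6* followed with a difference of -0.54. The median over the 33 genes was -0.15, and over all genes -0.02. Without *Ets2*, no Hox gene was past 2-fold, beside 2.06% of all genes. Past 1.5-fold, 3 of 33 were higher, beside 2.09% of all genes: *Hoxa9* by 0.84 (1.78-fold), *Hoxc10* by 0.74 (1.67-fold) and *Hoxb9* by 0.71 (1.64-fold). None was lower, beside 3.87%, and *Hoxc13* had a difference of -0.54. The medians were 0.01 over the Hox genes and 0.03 over all genes. These comparisons share arrays with the *Ets2* comparisons, in particular the *ErbB2* *Ets2* null array, on which *Hoxa9*, *Hoxa10*, *Hoxb9*, *Hoxc9* and *Hoxc10* were highest, so they are no second line of evidence. With *Ets2*, the luminal markers summed to 1511 in normal and 3119 in *ErbB2* fibroblasts, with 8 of 15 higher by over 2-fold, and the myeloid markers to 20358 and 33721, with 10 of 22 higher. Without *Ets2* the luminal sums were 3746 and 1160, with 8 lower by over 2-fold, and the basal sums were 944 and 260, with 6 of 9 lower. The fibroblast markers summed to 139182 and 146048 with *Ets2* and to 113102 and 142763 without. The median differences of that list were 0.16 and 0.46. The part of these cells in the differences of the Hox genes was not tested.

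Hox proteins bind DNA with partners of the TALE class, the Pbx, Meis and Pknox proteins. The list held these and 2 other genes of the TALE class, *Tgif1* and *Tgif2*. Of its 11 genes 10 were measured, and 9 were at log2 6 or more on all arrays. None differed by 1.5-fold in normal fibroblasts, and 1 was lower in *ErbB2* *Ets2* null fibroblasts. This was *Pbx3*, which read 8.14, 8.04, 8.21 and 7.62. The medians of the list were -0.11 in normal and 0.06 in *ErbB2* fibroblasts. The TALE genes of the list were therefore mostly read on every array, whatever the genotype.

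Polycomb proteins keep Hox genes silent and Trithorax proteins keep them active. Of 27 genes 25 were measured, 21 of them at log2 6 or more on all arrays. None was past 1.5-fold in normal fibroblasts, and 0 were higher and 2 lower in *ErbB2* *Ets2* null fibroblasts. *Ezh2*, the Polycomb methyltransferase of histone H3, read 8.27, 8.34, 8.73 and 8.10, and *Kmt2d*, a methyltransferase of the Trithorax group, read 8.02, 7.54, 7.85 and 7.19. *Ezh2* was highest on the *ErbB2* array with *Ets2*, and *Kmt2d* was lowest on the *ErbB2* *Ets2* null array. The list medians were -0.14 and 0.01.

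Retinoic acid turns Hox genes on in embryos. Of 18 genes of its metabolism and receptors 16 were measured. In normal *Ets2* null fibroblasts 2 were higher by over 2-fold and 0 lower, and in *ErbB2* *Ets2* null fibroblasts 1 was higher and 2 were lower. *Aldh1a1*, which makes retinoic acid, read 8.77, 10.43, 8.78 and 7.18, and so was higher without *Ets2* in normal and lower in *ErbB2* fibroblasts. *Aldh1a2*, with the same role, read 6.45, 5.72, 4.63 and 6.79, with the opposite pattern. *Cyp26b1*, which degrades retinoic acid, read 6.36, 7.45, 6.56 and 5.99. *Crabp1* read 6.90, 7.11, 7.43 and 6.42. At 1.5-fold, 4 genes were higher and 2 lower in normal *Ets2* null fibroblasts, and 1 was higher and 4 lower in *ErbB2* ones. *Rarb* (0.70 and -0.92) and *Rdh10* (0.65 and -0.97) had the directions of *Aldh1a1*. *Crabp2* (-0.79 and 0.52) had those of *Aldh1a2*. The medians of the list were -0.12 and -0.15, and its genes did not share 1 pattern.

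Genes that lie directly outside the clusters, which share the chromosome region but not the Hox function, were measured for 15 of 16. None was past 1.5-fold in either *Ets2* comparison, and the medians were -0.05 and 0.05. *Lnpk*, next to cluster D, read 8.08, 8.15, 8.54 and 7.98, and *Snx10*, near cluster A, read 8.55, 8.76, 8.54 and 9.06. Of the noncoding transcripts of the clusters 3 of 17 were measured, and *Hoxb5os* alone reached 6, at 6.11, 6.12, 5.86 and 6.38. *Hoxa11os* and *Hoxd3os1* were below 6 on every array.

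Other factors of limb and trunk position were measured for 40 of 44 genes, 17 of them at log2 6 or more on all arrays. In normal *Ets2* null fibroblasts 2 were higher by over 2-fold. *Prrx2*, a homeodomain factor of limb and skin mesenchyme, read 8.77, 9.79, 9.51 and 9.07, and *Zic1* read 2.95, 3.99, 3.68 and 3.38, below 6 throughout. None was past 2-fold in *ErbB2* fibroblasts. *Tbx18* read 7.59, 7.80, 7.88 and 7.03, *Msx1* read 7.96, 7.50, 8.19 and 7.54, and *Irx1* read 8.26, 7.49, 7.80 and 7.61. The medians of 0.07 and 0.04 lay close to those over all genes.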

How the data were processed

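Mammary fibroblasts were cultured after digestion of the tissue with collagenase and hyaluronidase and separation by gravity. The authors deposited log2 values made by RMA, per the submitters' processing notes. The methods name RMA as 1 of the methods used, without saying for which arrays, and give no version. RMA evens out the distributions of the arrays, which hides any shift that most genes share. Symbols came from the platform annotation, with 1 symbol for 34958 probe sets, several for 932 and none given here for 9211. All 33 Hox genes matched RefSeq on GRCm38.p6, which gave chromosomes, overlaps and promoters.

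Each gene took its probe set with the highest mean, and arrays were subtracted from each other with pandas 2.3.3, numpy 2.4.6 and scipy 1.17.1 in Python 3.11.15. Figures were drawn with matplotlib 3.10.9. With 1 array per genotype a rule of size (2-fold) replaced a test. All values were given for Hox genes past it, or known for mammary, thoracic, lumbar or limb position, and for up to 4 genes of each other list with the largest *Ets2* differences. The other Hox genes, *Zic1*, *Rarb*, *Rdh10* and *Crabp2* were named after their values were seen. The members and lists were chosen with earlier results of these data known. Summed linear levels are sums of antilogged values. The steps were tested on simulated data. Alternatives were the mean of a gene's probe sets, dropping probe sets open to cross-hybridisation, median centring, quantile normalization, a floor at log2 6, read levels of 5 and 7, and 4-fold.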

Additional observations from a re-analysis of the deposited data

Results flagged for a closer look

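In 5 Hox genes the same contrast ran in opposite directions in both settings, each time by more than the robust SD over all genes. With 1 array per genotype the difference between the settings was not tested. *Hoxb9* differed by 1.04 between the *Ets2* differences of *ErbB2* and normal fibroblasts, which were 0.67 and -0.37. The same 1.04 separates its tumor minus normal difference without *Ets2*, 0.71, from that with *Ets2*, -0.32, since both are made from the same 4 arrays. *Hoxc6* differed by 0.76 in the same way, with *Ets2* differences of 0.39 and -0.37 and tumor differences of 0.34 and -0.42. For *Hoxc10* the tumor minus normal difference was 0.74 without *Ets2* and -0.56 with it, 1.29 apart. For *Hoxb6* these were 0.25 and -0.54, which is 0.79 apart, and for *Hoxc9* 0.33 and -0.35, which is 0.68 apart. *Hoxc10* and *Hoxb9* were the 2 Hox genes in which the difference of *Ets2* differences was over 1, and they were the same 2 under all alternatives tried for it.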

How the results depend on the processing

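No paired analysis was possible because each genotype has 1 array. No difference past 1.5-fold changed direction under any alternative tried, but smaller values did. The Hox median in *ErbB2* *Ets2* null fibroblasts was -0.01 after quantile normalization, and that of tumor minus normal without *Ets2* was -0.05 with the mean of probe sets, in place of 0.01. With that mean *Hoxa5* was at -0.16 in normal *Ets2* null fibroblasts in place of 0.21, and for tumor minus normal with *Ets2* at -0.19 in place of 0.12, where *Hoxa3* was at 0.05 in place of -0.26. *Hoxd10*, which lies near 0, changed sign under a rescaling. A median was taken as moved when it shifted by over 0.1, a count when it changed by over 1.5 times. Of the results that answer a comparison, 102 alternative values stayed within these limits and 10 did not. With log2 7 as the level of reading, 11, 13, 10 and 9 Hox genes were read on the 4 arrays, in place of 18 on each. All but the 13 of normal *Ets2* null fibroblasts were outside these limits, and the set read then differed between arrays. With the mean of probe sets, 17, 17, 17 and 16 were read, within the limits. The Hox genes lower by 1.5-fold in normal *Ets2* null fibroblasts were 1 with the mean of probe sets and 1 with the floor at 6, in place of 2, as *Hoxa3* dropped out. In *ErbB2* *Ets2* null fibroblasts the count past 2-fold was 1 and past 4-fold 0, the count higher by 1.5-fold was 3 after median centring in place of 5, and the Hox median was 0.15 with the floor in place of 0.04. For tumor minus normal with *Ets2*, the median was -0.25 with the floor in place of -0.15, and 1 gene, *Hoxc10* at -0.60, was past 1.5-fold lower after quantile normalization. The floor leaves fewer genes in a median. For single genes, 203 values stayed within the robust SD and 5 did not, all with the mean of probe sets (*Hoxa3*, *Hoxa5* and *Hoxa10*). *Hoxa10* was then at 0.23 in place of 0.49 for tumor minus normal without *Ets2*. In the *Ets2* comparison of *ErbB2* fibroblasts it was at 0.40 in place of 0.61, within the robust SD but short of 1.5-fold. No scaling moved the median of all genes by over 0.1. Signal over background limits the 15 genes not read.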

Other observations

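Factors that separate forelimb from hindlimb mesenchyme were named here after their values were seen. *Tbx5*, used in the forelimb, read 6.87, 6.66, 6.68 and 6.83. *Tbx4*, used in the hindlimb, read 4.10 to 4.25, and *Pitx1*, also of the hindlimb, read 5.71, 5.49, 5.31 and 5.97. *Tbx15* and *Emx2*, of trunk and girdle mesenchyme, read 8.51 to 8.76 and 7.72 to 8.14. *En1*, of ventral ectoderm and some dermis, read 3.82 to 4.20. The genes above 6 and below 6 among these were the same on all 4 arrays.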
